A study of Zea mays with 6 samples.

Results

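Dek1, Cr4, Nkd1, Nkd2 and Thk1 are maize genes known for their part in the fate of the aleurone, and their transcripts were followed in kernels of the inbred line KN5585. The 5 genes were taken by gene ID from tables of 33051 genes. They are Zm00001d028818 (Dek1), Zm00001d023425 (Cr4), Zm00001d002654 (Nkd1), Zm00001d026113 (Nkd2) and Zm00001d027278 (Thk1). The deposited tables hold IDs without names, so the names rest on the gene list used here. The RefSeq genes of Zm-B73-REFERENCE-NAM-5.0 include 4 of the names, all but Thk1, and none of the nuclear IDs of the tables, so the pairing of name and ID could not be tested. All 5 genes were above 0 in every library.

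Messenger RNA of kernels was sequenced at 10 days after pollination in 3 CK libraries and 3 T libraries. CK is the non-transgenic control, KN5585 under a treatment labelled normal. T is 1 strain in the KN5585 background that received ZmSUS1, a sucrose synthase gene, and the series text describes each group as biological replicates. The sources used here do not give the promoter of the transgene or the number of kernels behind a library, and with 1 strain an effect of the transgene and one of that strain cannot be told apart. Values are FPKM (fragment counts divided by the length of the gene and by the library's mapped fragments), so levels may be compared between genes per length.

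The aleurone is the outermost layer of the endosperm, and in maize it is normally a single sheet of cells over the starchy endosperm. Its cells take their fate from their position at the surface and need continued signalling to keep it. DEK1, a membrane protein with a calpain protease domain, and CR4, a receptor-like kinase, promote aleurone fate, and kernels that lack either lose aleurone cells. NKD1 and NKD2 are duplicate zinc finger transcription factors of the INDETERMINATE domain family, and loss of both gives extra, poorly differentiated peripheral layers. THK1 is a NOT1-type scaffold of the CCR4-NOT complex, which acts in messenger RNA turnover, and its loss gives a thick aleurone of many layers.

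The 6 libraries summed to between 1359751 and 1378937 FPKM, with 28449 to 29052 genes above 0. Across the genes tested, log2(FPKM + 1) correlated at 0.982 to 0.988 within a group and at 0.965 to 0.973 between the groups. Fragment totals are not known, so no counting interval was set on any value. SUS1 was read from the row of Zm00001d047253, and this pairing of name and ID could not be tested either. The sources used here do not say whether that row counts transcripts of the ZmSUS1 transgene. The row had 214, 210 and 221 FPKM in the CK libraries and 155, 149 and 160 FPKM in the T libraries. It fell in T, with a log2 fold change of -0.47 (SE 0.050; limma, adjusted p = 0.000759), whereas the series was made to study overexpression. The groups are therefore called by their labels, CK and T.

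Dek1 and Thk1 fell in the T libraries by the limma test, by 21.8% and 19.8% of their mean CK level. Nkd1 and Cr4 had T means 12.5% and 14.7% below CK and did not pass. Nkd2 had a T mean 22.5% above CK and did not pass either. Of all 20514 genes tested, 3907 (19.0%) passed at an adjusted p under 0.05, 16.2% as lower and 2.88% as higher in T. Of the 5 genes, 2 passed as lower and 0 as higher, and at an unadjusted p under 0.05 these counts were 3 and 0 (limma), beside 28.4% of all genes as lower and 5.76% as higher. The median log2 fold change was -0.19 over the 5 genes and -0.13 over all genes tested. Within all genes tested, 19.5% had a lower log2 fold change than Dek1, 22.0% than Thk1, 39.3% than Nkd1, 48.2% than Cr4 and 93.0% than Nkd2.

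**Figure D1:**
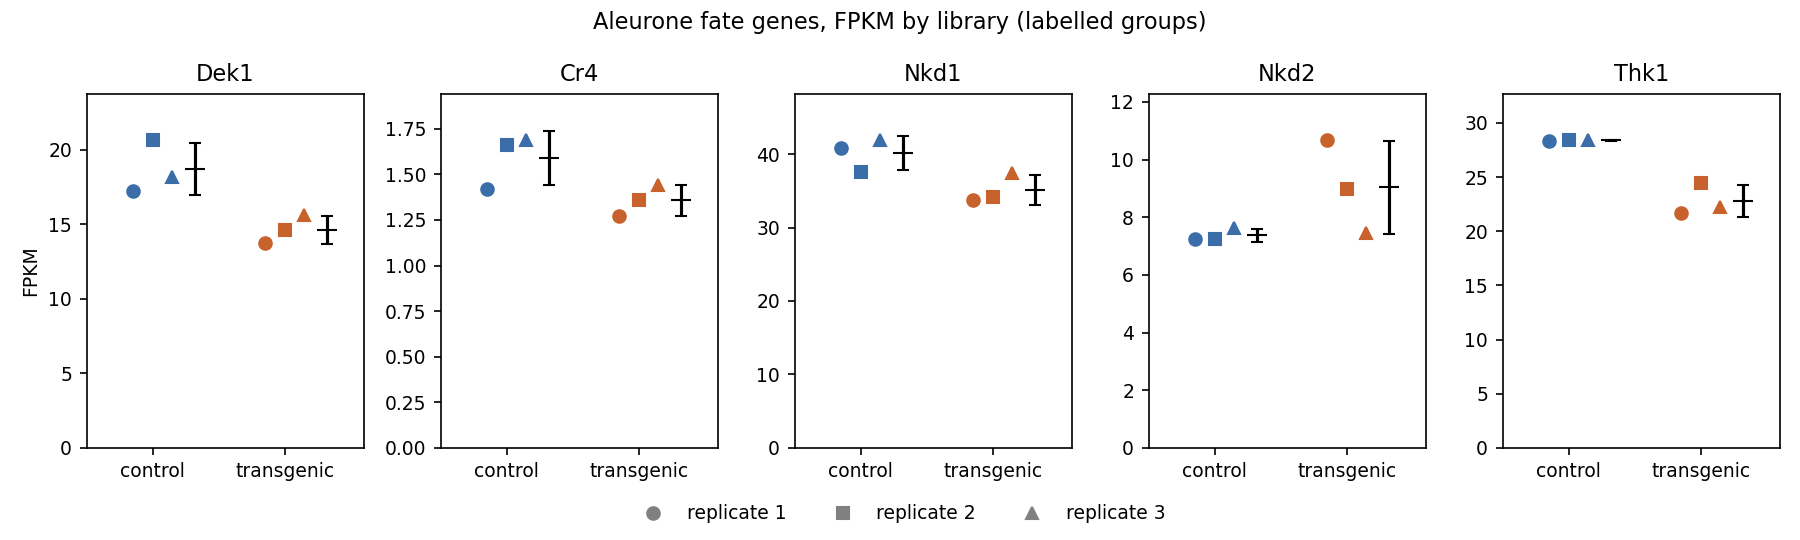
FPKM of each gene (vertical axis, from 0, with its own scale) in the 3 CK libraries (control, blue) and the 3 T libraries (transgenic, orange). Marker shapes give the replicate number, and the black bars give the mean ± SD (n = 3). Dek1, Nkd1 and Thk1 do not overlap between the groups, Cr4 overlaps, and for Nkd2 the T replicate 3 at 7.44 FPKM lies among the CK libraries.

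Among the genes that promote aleurone fate, Dek1 stood at 17.3, 20.7 and 18.2 FPKM in CK and at 13.7, 14.6 and 15.6 FPKM in T. Every CK library lay above every T library, with a gap of 1.66 FPKM between the groups. The means were 18.7 ± 1.77 and 14.6 ± 0.936 FPKM (SD, n = 3 each). Taken on the log2(FPKM + 1) scale, as for all genes here, the log2 fold change was -0.33 (SE 0.088; limma, adjusted p = 0.0346), with a 95% interval from -0.53 to -0.13. The exact permutation test of the FPKM values gave p = 0.1, which is the smallest that 3 against 3 libraries allow.

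The Dek1 call was lost in several smaller fits and under another scaling. Without CK 2, the highest CK library, the log2 fold change was -0.26 (limma, adjusted p = 0.108). Without CK 3, T 1 or T 2 it was -0.35, -0.29 and -0.33, with an adjusted p (limma) of 0.0620, 0.0984 and 0.0903. Without CK 1 or T 3 the adjusted p (limma) was 0.0458 and 0.0433. Each of these fits holds fewer libraries. With median-ratio rescaling, which sets the level of the typical gene equal between libraries, the log2 fold change was -0.19 (limma, adjusted p = 0.202).

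Cr4, the receptor-like kinase gene, was the lowest of the 5 genes, at 1.42, 1.66 and 1.69 FPKM in CK and 1.27, 1.36 and 1.44 FPKM in T. T 3 lay above CK 1, so the groups overlapped. The means were 1.59 ± 0.148 and 1.36 ± 0.0850 FPKM (SD, n = 3 each). The log2 fold change was -0.14 (SE 0.12; limma, adjusted p = 0.478), and the 95% interval from -0.42 to 0.15 holds both a fall and a rise. At this level the added 1 FPKM shrinks the log2 fold change, which was -0.21 with a pseudocount of 0.1 (limma, adjusted p = 0.496).

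The duplicate zinc finger genes differed in level, and their differences between the groups had opposite signs. Nkd1 stood at 40.9, 37.6 and 42.0 FPKM in CK and at 33.7, 34.2 and 37.4 FPKM in T. The groups did not overlap, though only 0.13 FPKM separated CK 2 from T 3. The means were 40.1 ± 2.29 and 35.1 ± 2.01 FPKM (SD, n = 3 each), and the log2 fold change was -0.19 (SE 0.070; limma, adjusted p = 0.0988). The exact permutation test of FPKM gave p = 0.1. With median-ratio rescaling the log2 fold change was -0.04 (limma, adjusted p = 0.746), and the groups overlapped.

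Nkd2 stood at 7.24, 7.25 and 7.64 FPKM in CK and at 10.7, 8.97 and 7.44 FPKM in T. The CK libraries lay close together, while the T libraries spread over a 1.44-fold range and T 3 lay inside the CK range. The means were 7.38 ± 0.228 and 9.03 ± 1.63 FPKM (SD, n = 3 each). The log2 fold change was 0.25 (SE 0.12; limma, adjusted p = 0.192), with a 95% interval from -0.03 to 0.53, and the exact permutation test of FPKM gave p = 0.2. Without T 3 the log2 fold change was 0.37 (limma, adjusted p = 0.0592), and without T 1 it was 0.13 (limma, adjusted p = 0.456).

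Thk1, whose product restricts the number of aleurone layers, had 28.3, 28.4 and 28.5 FPKM in CK and 21.7, 24.4 and 22.2 FPKM in T. On these deposited values the CK libraries had a coefficient of variation of 0.246%, and a gap of 3.90 FPKM lay between the groups. The means were 28.4 ± 0.0700 and 22.8 ± 1.44 FPKM (SD, n = 3 each). The log2 fold change was -0.31 (SE 0.067; limma, adjusted p = 0.0161), with a 95% interval from -0.46 to -0.15. The exact permutation test of FPKM again gave p = 0.1.

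Of the 5 genes, Thk1 had the smallest adjusted p on deposited values, and its call too was lost in some smaller fits. The adjusted p (limma) was 0.0525 without CK 1, 0.0557 without CK 2 and 0.0513 without T 1, with log2 fold changes from -0.31 to -0.27. It was 0.0387 without CK 3, 0.0229 without T 2 and 0.0453 without T 3. With median-ratio rescaling the log2 fold change was -0.17 (limma, adjusted p = 0.146). The rescaled values, 26.5 to 27.6 FPKM in CK and 22.8 to 25.6 FPKM in T, still did not overlap. The SD of the CK libraries was 0.521 FPKM after rescaling, against 0.0700 FPKM on deposited values.

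The scaling of the libraries changed which of the 5 genes stood apart. On deposited values the groups did not overlap in 3 of the 5 genes, all lower in T, beside 31.6% of all genes tested that were lower in this way and 7.36% that were higher. Median-ratio rescaling moved the median log2 fold change of all genes from -0.13 to -0.00077. The rescaled groups did not overlap in Thk1 (lower, beside 17.0% of all genes) and in Nkd2 (higher, beside 16.9%). Of the 5 genes, 0 then passed the limma test, beside 7.41% of all genes as lower and 6.21% as higher, and at an unadjusted p under 0.05 Thk1 was lower and Nkd2 higher, beside 14.7% and 13.8% of all genes.

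Rescaled in this way, Nkd2 stood at 6.78, 6.86 and 7.40 FPKM in CK and at 11.2, 9.41 and 7.87 FPKM in T. Its log2 fold change was then 0.38 (SE 0.12; limma, adjusted p = 0.0798). After quantile normalization it was 0.39 (limma, adjusted p = 0.0722), and 0 of the 5 genes passed, beside 7.02% of all genes as lower and 6.67% as higher. After scaling to the total that leaves out the 20 most abundant genes it was 0.40 (limma, adjusted p = 0.0582), and again 0 of the 5 passed, beside 6.82% as lower and 6.82% as higher. Under both of these scalings Nkd2 alone was under an unadjusted p of 0.05 (limma). With quantile normalization 13.7% of all genes were below that p as lower and 14.7% as higher, and with the other scaling 13.3% and 14.8%.

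**Figure D2:**
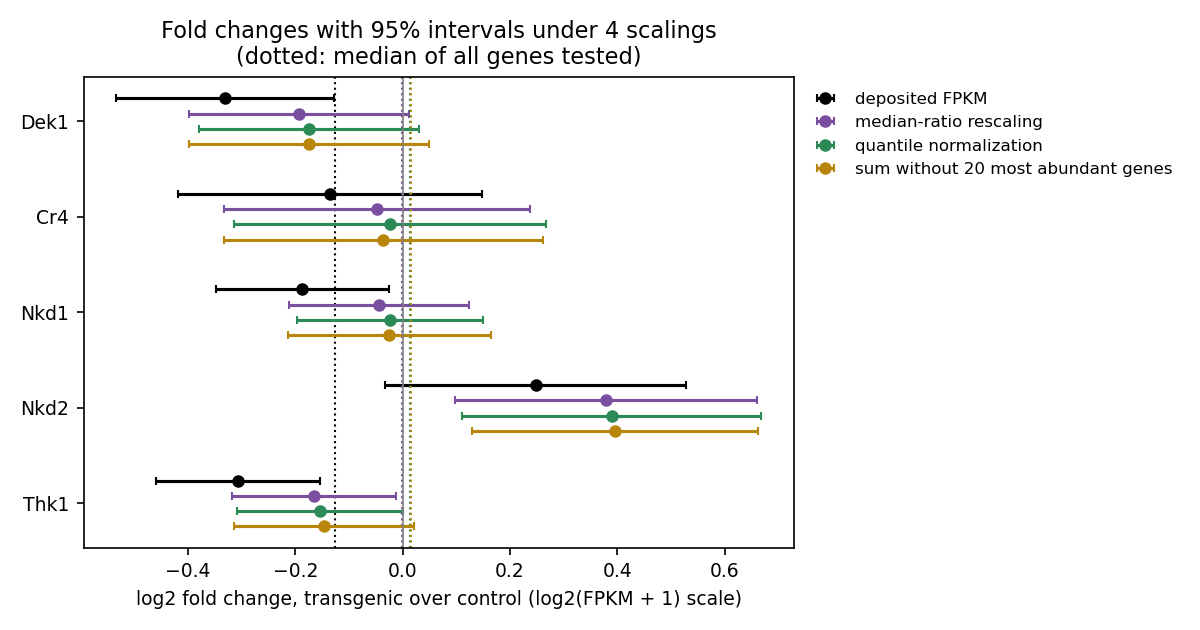
Log2 fold change of each gene (T over CK, log2(FPKM + 1) scale) with its 95% interval from limma (n = 3 each), on deposited FPKM (black) and under 3 rescalings. Dotted lines give the median of all 20514 genes under each scaling. Under each rescaling all 5 genes lie to the right of their value on deposited FPKM, and the Nkd2 interval, which starts at -0.03 on deposited values, starts at 0.10 with median-ratio rescaling.

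The rank of a gene within its own library does not depend on a scaling factor. As a percentile of the genes tested, Nkd2 ranked at 46.9%, 47.2% and 49.6% in CK and at 62.5%, 57.2% and 51.8% in T. The groups did not overlap (exact permutation test, p = 0.1), beside 18.2% of all genes whose ranks were higher in T without overlap. Thk1 ranked at 83.3%, 83.6% and 84.0% in CK and at 80.6%, 82.8% and 81.2% in T, also without overlap, beside 16.0% of all genes whose ranks were lower in this way. The ranks of Dek1, Cr4 and Nkd1 overlapped between the groups. Nkd1 lay between 87.9% and 89.7%, Dek1 between 69.9% and 77.2%, and Cr4 between 6.61% and 11.0%.

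**Figure D3:**
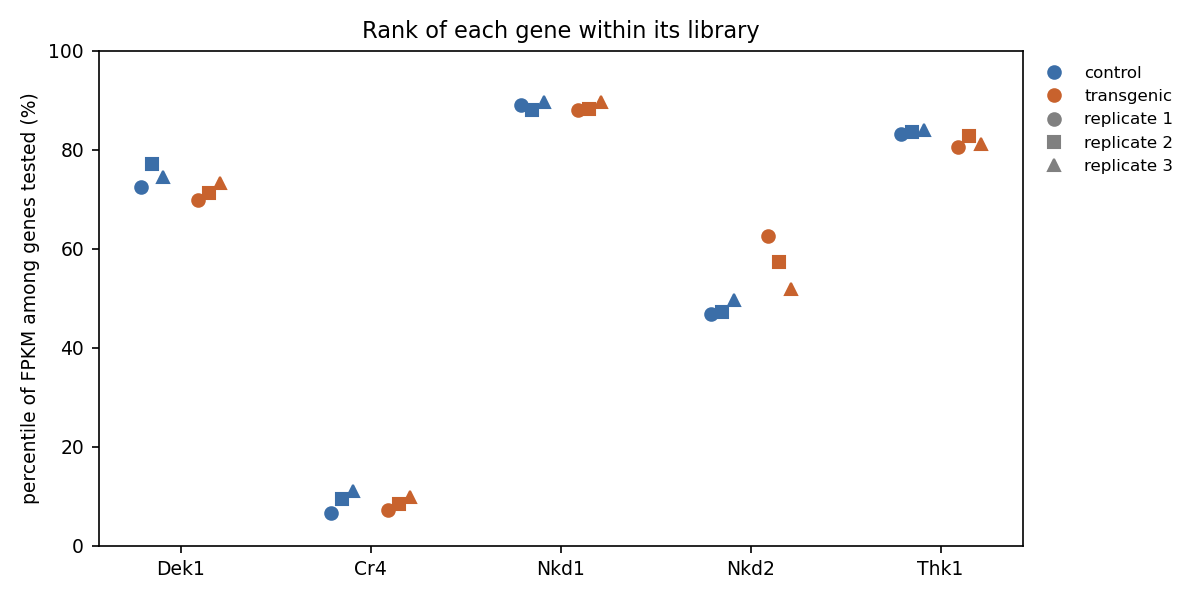
Percentile of each gene's FPKM among the 20514 genes tested, within each CK (control, blue) or T (transgenic, orange) library, with marker shapes for the replicate number. Nkd2 lies between 46.9% and 49.6% in CK and between 51.8% and 62.5% in T.

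The order of levels was the same in all 6 libraries, with Nkd1 highest, then Thk1, Dek1, Nkd2 and Cr4. The FPKM of Nkd1 was 22.6 to 28.8 times that of Cr4. The FPKM ratio of neighbours in this order was 1.32 to 1.68 for Nkd1 over Thk1 and 1.37 to 1.67 for Thk1 over Dek1. Dek1 over Nkd2 ranged more widely, from 1.28 in T 1 to 2.85 in CK 2. Each gene thus stayed above its neighbour in every library. By mean FPKM over the 6 libraries, Nkd1 ranked 2303 among all genes, Thk1 3565, Dek1 5455, Nkd2 9692 and Cr4 18901.

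Ratios between the genes were taken within each library and are free of its scaling. Of the 10 pairs, the groups did not overlap in 4, which were the 4 pairs that hold Nkd2 and so share its values. Non-overlap with Nkd2 was common, since the ratio to Nkd2 was lower in T without overlap for 47.1% of all other genes tested. The FPKM ratio of Nkd1 to Nkd2 was 5.64, 5.18 and 5.49 in CK and 3.15, 3.81 and 5.03 in T. It was lower in every T library than in any CK library, and T 3 came close to CK 2. The difference of T from CK in the log2 ratio was -0.47 for Nkd1 over Nkd2, -0.60 for Thk1 over Nkd2, -0.63 for Dek1 over Nkd2 and 0.50 for Nkd2 over Cr4. Each gave p = 0.1 in the exact permutation test and 0.25 adjusted over the 10 pairs (Benjamini-Hochberg), so none could pass in this design. Without T 1 these log2 differences were smaller, at -0.31, -0.43, -0.45 and 0.33.

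**Figure D4:**
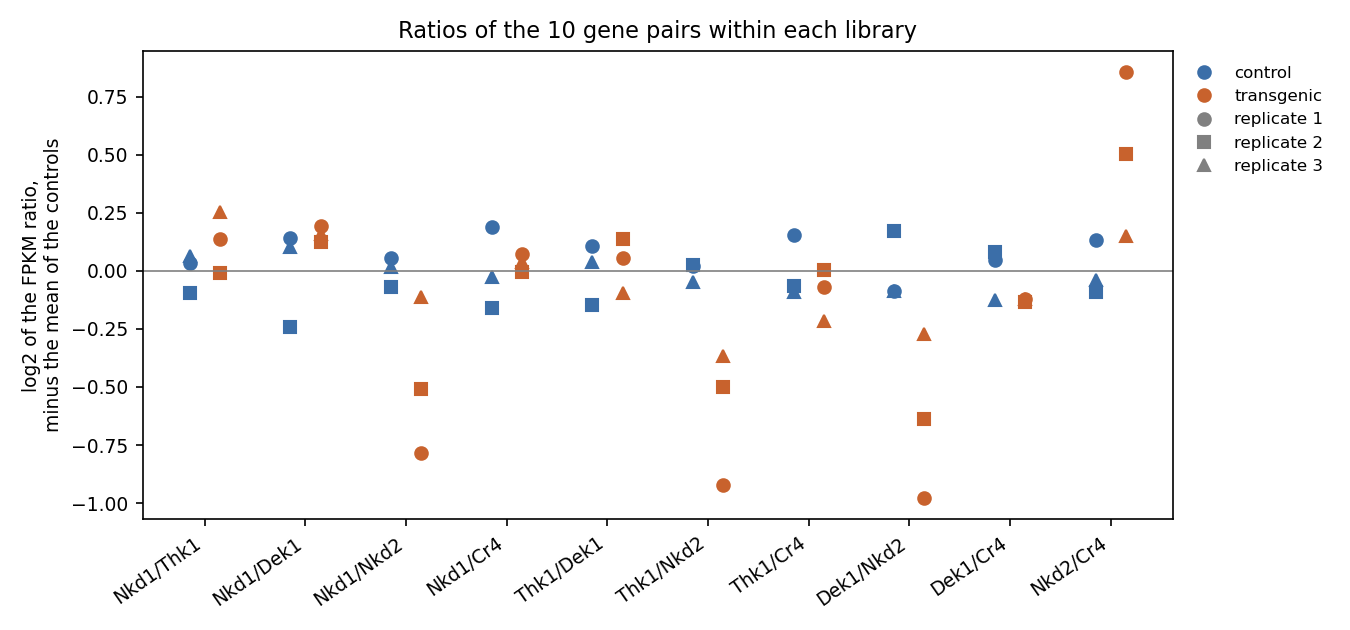
Log2 of the FPKM ratio of each pair of genes within a library, minus the mean of the CK libraries (vertical axis), for CK (control, blue) and T (transgenic, orange), with marker shapes for the replicate number. The pairs Nkd1/Nkd2, Thk1/Nkd2, Dek1/Nkd2 and Nkd2/Cr4 separate the groups, and the other pairs overlap.

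Nkd2 made up 15.1%, 16.2% and 15.4% of the summed Nkd1 and Nkd2 FPKM in CK and 24.1%, 20.8% and 16.6% in T. All 3 T libraries lay above every CK library, T 3 only slightly. Because the share is another form of the Nkd1 to Nkd2 ratio above, its lack of overlap is the same result. The ratio to Nkd2 was lower in T without overlap for 47.1% of all other genes tested. The mean shares were 15.5 ± 0.577% and 20.5 ± 3.75% (SD, n = 3 each), a difference of 4.93 percentage points (exact permutation test, p = 0.1), or 3.13 without T 1. The sum of the pair was 47.5 ± 2.45 FPKM in CK and 44.2 ± 0.868 FPKM in T (SD, n = 3 each), and the groups overlapped (exact permutation test, p = 0.2). The sources used here do not say how fragments that match both duplicates were counted, so the split between them is uncertain to that degree. No other gene of the tables repeated the values of any of the 5 genes in all 6 libraries.

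The other 6 pairs overlapped between the groups. Over all other genes tested, ratios did not overlap, in either direction, for 39.4% against Thk1 and 35.8% against Dek1. The shares were 28.0% against Nkd1, 24.6% against Cr4 and 48.4% against Nkd2. The FPKM ratio of Thk1 to Dek1, a negative and a positive regulator of aleurone fate, was 1.53 ± 0.137 in CK and 1.56 ± 0.125 in T (SD, n = 3 each), a log2 difference of 0.03 (exact permutation test, p = 0.7). Dek1 over Cr4 was 11.8 ± 0.897 and 10.8 ± 0.0514 (SD, n = 3 each; exact permutation test, p = 0.3), with CK 3 inside the T range. This ratio did not overlap with a pseudocount of 0.1 or 1, nor did Thk1 over Cr4 with a pseudocount of 1 (exact permutation test, p = 0.1 for each). No share over all genes was taken at those pseudocounts. Nkd1 over Cr4 was 25.4 ± 3.12 and 25.9 ± 0.699 (SD, n = 3 each; exact permutation test, p = 0.7). A p that misses the threshold does not show that these ratios were equal.

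**Figure D5:**
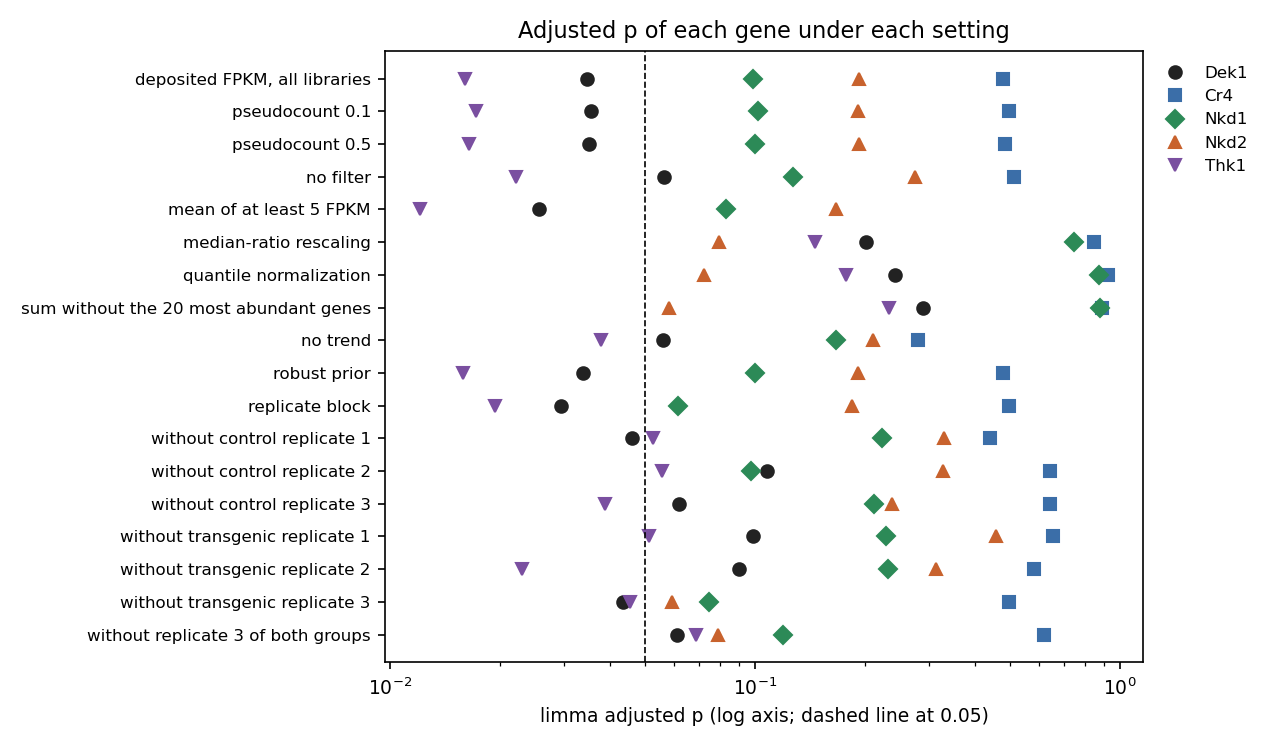
Limma adjusted p (horizontal log axis) of each gene on deposited FPKM with all libraries and under 17 other settings, with a dashed line at 0.05. Thk1 and Dek1 lie on both sides of the line, while Nkd1, Nkd2 and Cr4 lie above 0.05 in every setting that tested them.

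Likeness of pattern was measured as the root mean square difference of log2(FPKM + 1) over the 6 libraries, after centring each gene on its own mean. The gene most like Dek1 was Zm00001d021433, at a distance of 0.026, with 26.2, 31.1 and 27.3 FPKM in CK and 21.5, 22.7 and 23.0 FPKM in T. The gene most like Thk1 was Zm00001d050227, at 0.021. It had 1.58, 1.64 and 1.52 FPKM in CK and 0.97, 1.22 and 1.02 FPKM in T. The gene most like Nkd2 was Zm00001d018528, at 0.038. It had 1.20, 1.24 and 1.25 FPKM in CK and 2.01, 1.77 and 1.20 FPKM in T. At such low levels, and at that of Cr4, the added 1 FPKM shrinks fold differences. A small distance there does not mean an equal fold difference in FPKM. The nearest genes to Nkd1 and Cr4 were at 0.018 and 0.0067. The sources used here do not say what these genes encode.

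Among the 5 genes themselves, Dek1 and Thk1 were each other's nearest at a distance of 0.097, while 4.43% of all genes tested lay nearer to Dek1 and 9.84% nearer to Thk1. Nkd1 and Cr4 were each other's nearest of the 5 at 0.081, while 6.37% of all genes lay nearer to Nkd1 and 7.76% nearer to Cr4. Nkd2 was farthest from the others, at 0.256 from Cr4, and 42.5% of all genes tested lay nearer to it. These distances over 6 libraries in 2 groups are a description and carry no test.

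In RNA of whole kernels, fewer cells of a type and less RNA per cell cannot be told apart. Markers of the aleurone, epidermis, basal transfer layer, embryo surrounding region, starchy endosperm and embryo were listed by symbol, with genes of the aleurone pathway. The 7 lists held 41 symbols, among them the 5 genes followed here. The RefSeq genes include 34 of the symbols, and through RefSeq 0 could be paired with an ID of the deposited tables. The label of the tissue could therefore not be set against its markers, and the part of tissue makeup in the values of the 5 genes was not tested.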

How the data were processed

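Each library has 1 table of FPKM values made by the authors, per the file headers, with 2 decimals. The submitters' processing notes list DESeq2, with no version and no role. The sources used here do not give the aligner, counting tool, build or annotation, so no coordinates are printed. Groups and replicate numbers came from the sample titles. Because FPKM is relative to a library total, a few abundant genes that take more of it lower the others.

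The 20514 genes at a mean of 1 FPKM or more were tested on log2(FPKM + 1), and all 5 genes were among them. The groups were compared in limma 3.58.1 under R 4.3.3 (moderated variance with a mean trend, no covariate, 2-sided, Benjamini-Hochberg over all genes, threshold 0.05), a model tested on simulated data. The simulated data held no shift of the typical gene between the groups, so they do not bear on the choice of scaling. Ratios, shares, ranks and FPKM of single genes were compared by exact 2-sided permutation in SciPy 1.17.1, for which 0.1 is the smallest p. Both tests take the libraries as units. The limma p sets the difference between the groups against a spread between libraries that is moderated over all genes. The permutation p places that difference among all relabellings of the libraries.

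To check the pairing, each library was centred on its group and libraries with the same number were correlated over genes, which gave 0.13, 0.12 and 0.33. All exceed 0.1, so the numbers were taken as pairs in the alternatives only, on the values and on no label. CK 1 with T 2 gave 0.085 and CK 2 with T 1 gave 0.105, so numbers 1 and 2 were hardly told apart. Only replicate 3 stood apart, at -0.20 to -0.18 with the other numbers. The main fit and the permutation tests were unpaired. A replicate block was among the alternatives, beside other pseudocounts, filters, scalings, variance priors and left-out libraries. The text names the 5 genes, SUS1 and, for Dek1, Thk1 and Nkd2, the gene nearest in pattern. The members and lists were chosen with earlier results of these data known.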

Additional observations from a re-analysis of the deposited data

How the results depend on the processing

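Only rescaling could change a sign, or for Cr4 and Nkd2, whose groups overlap, pseudocounts and left-out libraries. All signs held (16 alternatives for Cr4, 17 for others), and SUS1 passed in all (-0.50 to -0.31). Nkd1, Nkd2 and Cr4 passed in none, with adjusted p (limma) from 0.0615 to 0.882, 0.0582 to 0.456 and 0.279 to 0.928. Dek1 and Thk1 fell short under median-ratio rescaling (log2 fold change -0.19 and -0.17), quantile normalization (-0.17 and -0.15) and the total without the 20 most abundant genes (-0.17 and -0.15), which take out the shift of the median gene, and without replicate 3 of both groups (-0.39 and -0.29), a smaller fit. Dek1 also fell short with no filter (-0.33, limma adjusted p = 0.0563) and no trend (-0.33, limma adjusted p = 0.0558), where the cause was not tested. Leaving out single libraries gave -0.39 to -0.26 for Dek1 and -0.36 to -0.27 for Thk1. In these fits 0 to 2 of the 5 genes were called lower, beside 9.41% to 14.0% of all genes. The number called lower, 2 on deposited values, was 0 under the 3 rescalings and without replicate 3 of both groups (beside 2470 of 20514 genes), and 1 with no filter (beside 8.44% of all genes) and with no trend (beside 13.9%). The replicate block changed no call of the 5 genes (limma, adjusted p = 0.0294 for Dek1 at -0.33 and 0.0193 for Thk1 at -0.31).

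Over all genes, 3316 were lower and 591 higher on deposited values, against 1521 and 1273 with median-ratio rescaling, 1440 and 1369 by quantiles, and 1400 and 1399 without the 20 most abundant genes in the total. Leaving out single libraries gave 1931 to 2863 lower and 354 to 459 higher. With all libraries and no pseudocount 4 pairs did not overlap, beside 24.6% to 48.4% of other genes' ratios. Elsewhere 4 to 6 did not (no share taken). The difference in the Nkd2 share ranged over its 9 alternatives from 3.13 (without T 1) to 6.88 (without T 3) percentage points. Its groups did not overlap, so leaving out a single library could not change its sign. The replicate block leaves the difference at 4.93 (exact sign-flip test, p = 0.25, its minimum). The log2 difference of Nkd1 over Cr4 was -0.052 with a pseudocount of 1 and ranged from -0.046 without CK 2 to 0.128 when single libraries were left out. That of Thk1 over Dek1 ranged from -0.041 without CK 2 to 0.095, and was -0.020 without T 2. Fragment counts are not known, so the limit set by depth could not be given.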
